A study of Mus musculus with 2 samples.

Results

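The connexin genes Gja1, Gjb2, Gjb5 and Gjb6 were described in the epidermis of newborn Chrm3 KO mice. They were chosen by symbol, not by level, and they are 4 of the 27998 genes counted, each found once in both matrices. The cells came from the epidermis of 2 male C57BL/6J mice at postnatal day 0, both lacking Chrm3 (Chrm3 KO), which encodes the muscarinic acetylcholine receptor of the M3 subtype. Each mouse gave 1 library of single-cell RNA sequencing, in which a unique molecular identifier (UMI) marks each captured transcript so that PCR copies count once. The labels and methods name a KO line with no tissue-specific driver, so no population here serves as an unaffected control. No WT library was used here. All comparisons below are therefore between cell populations within the KO epidermis and none is between genotypes.

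Connexins are membrane proteins that assemble into hemichannels. Hemichannels of neighbouring cells dock to form gap junctions, through which ions, calcium-mobilizing messengers and small metabolites pass from cell to cell. In skin, keratinocytes express several connexins at once, the set changes as cells leave the basal layer, and inherited changes in several of these genes cause skin thickening, hair loss or deafness in people. Gja1 encodes Cx43, the most widely distributed connexin, which is found in keratinocytes as well as in heart, bone and mesenchyme. Gjb2 encodes Cx26 and Gjb6 encodes Cx30, partners in the inner ear that are also made in skin and its appendages. Gjb5 encodes Cx31.1, a connexin of stratified epithelia.

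On GRCm38 (mm10), Gja1 (ENSMUSG00000050953) lies on chromosome 10 from 56377330 to 56402513 on the plus strand, with 2 exons in its principal transcript. Gjb2 (ENSMUSG00000046352) lies on chromosome 14 from 57098600 to 57104702 on the minus strand, with 2 exons. Gjb6 (ENSMUSG00000040055) is its neighbour, on chromosome 14 from 57123303 to 57133611 on the minus strand, with 3 exons, and 18600 bases separate the pair. Gjb5 (ENSMUSG00000042357) lies on chromosome 4 from 127354809 to 127358181 on the minus strand, with 2 exons. None of the 4 genes overlaps another annotated gene. The 250 bases before the start of each member, from RefSeq on GRCm38.p6, are shown because 3 of the members rose together in differentiated keratinocytes and Gja1 moved least. They run 5′ to 3′ on the strand of the gene, with matches to the searched motifs in capitals.
Gjb5, chr4:127358165-127358414, minus strand: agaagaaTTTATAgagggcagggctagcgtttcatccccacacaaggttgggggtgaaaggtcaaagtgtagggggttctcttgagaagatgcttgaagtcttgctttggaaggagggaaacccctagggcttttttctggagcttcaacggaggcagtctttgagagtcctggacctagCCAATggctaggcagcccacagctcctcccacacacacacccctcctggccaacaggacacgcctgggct
Gja1, chr10:56377050-56377299, plus strand: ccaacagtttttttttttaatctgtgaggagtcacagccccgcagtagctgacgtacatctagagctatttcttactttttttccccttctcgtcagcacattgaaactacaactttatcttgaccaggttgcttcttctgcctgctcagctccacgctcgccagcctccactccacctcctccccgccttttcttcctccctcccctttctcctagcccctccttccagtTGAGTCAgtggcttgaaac
Gjb2, chr14:57104703-57104952, minus strand: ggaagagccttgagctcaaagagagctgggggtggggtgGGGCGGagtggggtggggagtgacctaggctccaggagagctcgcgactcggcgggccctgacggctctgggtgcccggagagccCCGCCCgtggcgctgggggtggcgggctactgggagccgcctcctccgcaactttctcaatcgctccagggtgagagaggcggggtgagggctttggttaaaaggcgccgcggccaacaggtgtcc
Gjb6, chr14:57133612-57133861, minus strand: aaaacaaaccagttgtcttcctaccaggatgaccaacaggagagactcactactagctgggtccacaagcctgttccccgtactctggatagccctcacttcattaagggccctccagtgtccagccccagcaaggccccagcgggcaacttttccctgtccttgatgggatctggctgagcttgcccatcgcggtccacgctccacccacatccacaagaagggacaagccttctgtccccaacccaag
The motifs were searched on both strands. Gjb2 held the GC box GGGCGG with its first base at 211 and, on the other strand, at 126 bases before the start, and 32.7% of all 32851 RefSeq promoter windows of this length hold it. Gja1 held the AP-1 site TGANTCA at 19 bases before the start, which 6.75% of windows hold. Gjb5 held the CCAAT box at 70 bases, found in 33.8% of windows, and the TATA box letters TATAAA on the other strand at 243 bases, found in 12.4%. Gjb6 held none of the searched motifs, and the Grainyhead-like site AACCGGTT, present in 0.116% of windows, was in none of the 4. The Gjb2 window was the richest in G and C, at 69.2% with 18 CpG dinucleotides, against 56.8% and 5 for Gjb6, 54.4% and 3 for Gjb5, 50.0% and 6 for Gja1, and a median of 52.4% and 6 over all windows. These matches describe the letters of the windows and not binding.

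After filtering, 7607 cells of mouse 1 and 11881 cells of mouse 2 were kept, with medians of 10480 and 10577 UMIs per cell, and 34 barcode sequences occurred in both libraries. Of Chrm3, 13 and 19 UMIs were counted (0.137 and 0.128 CPM, the UMIs scaled to a common total), and UMI counts do not tell whether those transcripts span the deleted part. Clusters were formed with all connexin and pannexin genes left out, and were named from marker lists, so each name stands for cells like that type. In the interfollicular epidermis (IFE) the stages were basal 1 (474 and 789 cells in mouse 1 and mouse 2), basal 2 (639 and 1200), an unnamed basal cluster (463 and 765), dividing basal (401 and 775), transitional (400 and 590), differentiated (151 and 186) and terminally differentiated (47 and 61). The labels were checked against the keratins. Krt14 stood at 18147 and 19306 CPM in basal 1, Krt10 at 33600 and 29838 CPM in differentiated cells, and Lor at 17666 and 12241 CPM in terminally differentiated cells. The terminally differentiated sums were the shallowest, with 318518 and 685741 UMIs, and also carried Krt14 at 4386 and 5216 CPM and Mki67 at 251 and 182 CPM.

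Levels below are CPM of the UMIs summed over the cells of a stage or class in 1 mouse, and the number of mice is 2 throughout. Counts come from one end of the transcript, and levels were not compared between genes. Intervals are exact 95% Poisson intervals for levels and exact 95% binomial intervals for shares of cells, and cover counting error only.

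Gja1 was present in every IFE stage, and its level was highest in the differentiated and transitional stages. In mouse 1 and mouse 2 it stood at 201 and 166 CPM in basal 1, 168 and 146 in basal 2, 146 and 128 in the unnamed basal cluster and 158 and 148 in dividing basal cells. It stood at 240 and 239 CPM in transitional, 244 and 268 in differentiated and 195 and 169 in terminally differentiated cells. Both mice placed the transitional and differentiated stages above every other stage, with no overlap, and the values of basal 1 and terminally differentiated cells overlapped. The mean level ran from 137 ± 12.8 CPM (SD, n = 2) in the unnamed basal cluster to 256 ± 16.5 CPM in differentiated cells.

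Gjb2 was low in all basal stages and highest in the upper layers. It stood at 5.39 and 5.91 CPM in basal 1, 7.45 and 10.9 in basal 2, 12.9 and 9.18 in the unnamed basal cluster and 7.42 and 8.19 in dividing basal cells. It stood at 15.2 and 16.7 CPM in transitional cells, at 45.1 and 42.5 in differentiated cells, and at 62.8 and 40.8 in terminally differentiated cells, the last from 20 and 28 UMIs. The transitional stage lay above all basal stages and below the differentiated stage in both mice, whereas the differentiated and terminally differentiated values overlapped.

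Gjb5 had the most marked peak, in the differentiated stage. In the 4 basal populations it ranged from 2.34 CPM (basal 1, mouse 1) to 4.90 CPM (basal 2, mouse 2). It stood at 7.54 and 6.84 CPM in transitional cells, at 74.4 (95% interval 66.5 to 83.0) and 67.6 (60.9 to 74.9) CPM in differentiated cells, and at 28.3 and 17.5 CPM in terminally differentiated cells, the last from 9 and 12 UMIs. No stage overlapped the differentiated one, and the terminally differentiated values lay between it and the transitional stage in both mice.

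Gjb6 was counted at few UMIs in most stages, on which its order rests. It stood at 0.539 and 1.42 CPM in basal 1, from 3 and 13 UMIs, at 1.86 and 3.33 in basal 2, at 4.32 and 3.54 in the unnamed basal cluster and at 2.47 and 2.37 in dividing basal cells. It stood at 2.74 and 2.20 CPM in transitional cells, at 10.5 and 12.2 in differentiated cells, and at 9.42 and 17.5 in terminally differentiated cells, the last from 3 and 12 UMIs. Both mice placed the differentiated stage above every basal stage and the transitional one, and the differentiated and terminally differentiated stages overlapped. All basal and transitional levels lay within or below the range of Langerhans cell-like cells (5.06 and 2.32 CPM, from 8 and 5 UMIs). Against that class, differences of Gjb6 among those stages were not told apart from free RNA. Melanocyte-like cells stood lower, at 0.676 and 1.72 CPM from 2 and 9 UMIs. The unnamed basal cluster, basal 2, dividing basal and transitional cells lay above melanocyte-like cells in both mice, so the reading depended on the class taken as background. Only for the unnamed basal cluster of mouse 1 did the Poisson intervals not overlap.

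**Figure D1:**
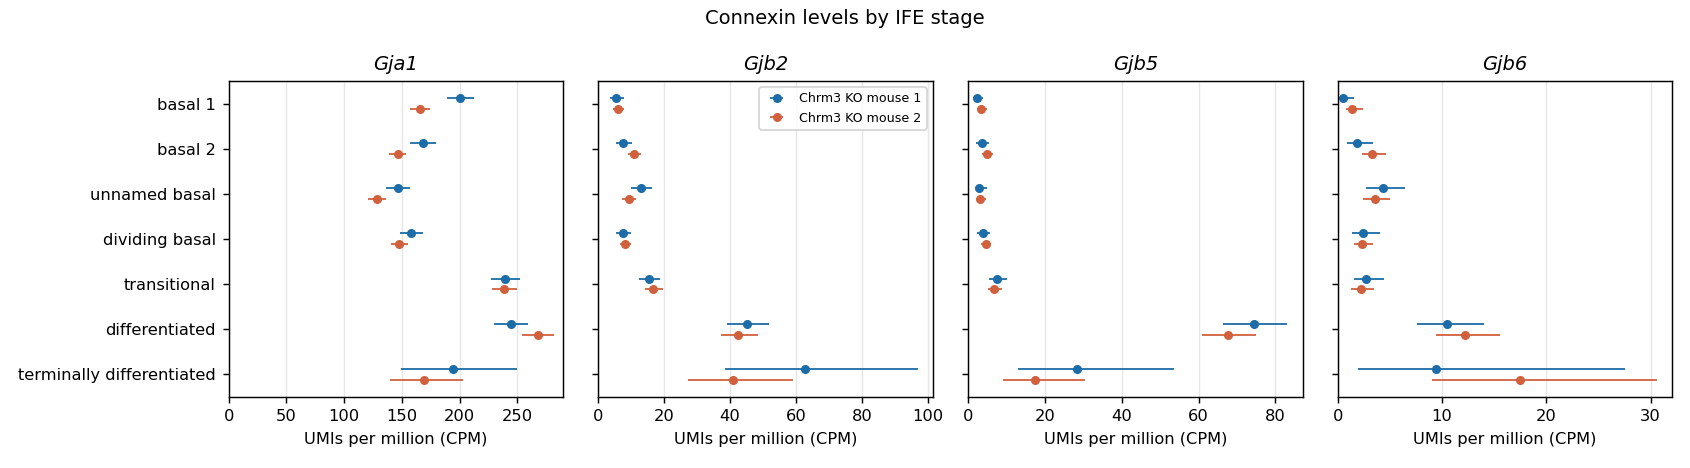
Level of each connexin (CPM of summed UMIs, horizontal axis, linear from 0, a scale of its own in each panel) in the 7 IFE stages (vertical axis), with 1 point per mouse and exact 95% Poisson intervals as bars. Gjb5 stands at 74.4 and 67.6 CPM in the differentiated stage and at no more than 7.54 CPM in any basal or transitional sum, whereas Gja1 stays between 128 and 268 CPM throughout.

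Which members change between dividing and resting basal cells was asked first, with the dividing sums set against the mean of basal 1 and basal 2. All tests are edgeR's quasi-likelihood test on the summed counts with Benjamini-Hochberg adjusted p over all genes tested, and fold changes follow edgeR's trimmed mean of M-values (TMM) scaling, so they differ somewhat from ratios of the CPM above. Gja1 was 1.21-fold lower in dividing cells (log2 fold change −0.27 ± 0.090 SE, adjusted p = 0.0335), and the other 3 members did not pass the test, at −0.03 for Gjb2 (adjusted p = 0.943), 0.12 for Gjb5 (0.731) and 0.35 for Gjb6 (0.475). In this comparison 16.6% of the 11872 genes tested rose and 12.2% fell. The Gja1 call did not hold with finer clusters (0.15 at resolution 1.2) or without integration of the mice (0.09), nor with scaling to library totals in place of TMM (−0.15, adjusted p = 0.277). With finer clusters and without integration, Gjb2 passed as higher in dividing cells (0.80, adjusted p = 0.00106, and 1.17, adjusted p = 1.94e-05), as did Gjb6 (1.22, adjusted p = 0.0109, and 2.12, adjusted p = 4.76e-05), so this comparison depended on how the cells were clustered. There a dividing cluster (917 and 922 cells) had Col14a1 and the follicle marker Lhx2 among its leading genes. Basal 2, counted as resting, took in a cluster led by the S-phase markers Ung and Mcm3 (1235 and 1455 cells). At resolution 1.2 basal 2 also took in a cluster of 921 cells led by Pou3f1 and Ccl27a. In the main run, the cluster led by these genes was in the hair follicle class. The groups compared were thus not those of the main run, and the part of these cells was not tested.

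Between the resting basal populations, basal 2 against basal 1, none of the 4 members passed the test, where 3.81% of genes rose and 5.08% fell. Basal 2 was named from Sox4, Dcn and Cxcl14 alone, the only markers of its list enriched by 0.5 among IFE cells. No mean enrichment of that list was required, so its name is less sure than that of basal 1. Gja1 stood at −0.30 ± 0.103 on the log2 scale (adjusted p = 0.0872), Gjb2 at 0.65 ± 0.235 (0.102), Gjb5 at 0.45 ± 0.270 (0.359) and Gjb6 at 1.27 ± 0.428 (0.0811). With the mouse as a block, which pairs the sums of an animal, 3 of them passed: Gja1 at −0.30 (adjusted p = 0.0185), Gjb2 at 0.67 (0.0486) and Gjb6 at 1.27 (0.0384). Without integration Gja1 (−0.48, adjusted p = 0.0110) and Gjb6 (1.43, 0.0434) passed, at resolution 1.2 Gja1 (−0.56, 0.00426), and without a filter on low counts Gjb6 (1.26, 0.0380). Without integration and at resolution 1.2, basal 2 included the cluster with S-phase markers named above. At resolution 1.2 basal 2 also included the Pou3f1- and Ccl27a-led cluster named above. Gja1 was the higher in basal 1 and Gjb2 and Gjb6 the higher in basal 2 in both mice. Across mice the Gja1 values overlapped (166 CPM in basal 1 of mouse 2, 168 in basal 2 of mouse 1). Gjb6 in basal 1 rests on 3 and 13 UMIs. In both stages Gjb2 and Gjb6 lay within or below the range of Langerhans cell-like cells (for Gjb2 11.4 and 6.97 CPM). Against that class these differences were not told apart from free RNA.

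From resting basal to transitional cells, Gja1, Gjb2 and Gjb5 rose. Gjb2 rose 2.29-fold (log2 1.2 ± 0.179, adjusted p = 0.000114), Gjb5 rose 2.06-fold (1.04 ± 0.206, adjusted p = 0.00118) and Gja1 rose 1.49-fold (0.57 ± 0.087, adjusted p = 0.000135). The Gjb5 levels on both sides of this step lay within or below the range of T cell-like cells (3.58 and 9.68 CPM, from 2 and 4 UMIs), which serve below as background. Against that class the rise is one between levels not told apart from free RNA. Langerhans cell-like cells stood lower, at 2.53 and 4.65 CPM from 4 and 10 UMIs. Transitional cells lay above them in both mice, with overlapping Poisson intervals. Gjb6 stood at 0.56 ± 0.352 (adjusted p = 0.240), with an interval from −0.27 to 1.39. Thus 3 of 4 members rose where 18.7% of genes rose and 17.0% fell, and the median of the members was 0.81 against 0.00 over all genes tested. Markers of the hair follicle moved with this comparison. The 31 follicle markers summed to 3457 and 2976 CPM in transitional cells against 948 and 1098 CPM in basal 1 and 1442 and 1575 CPM in basal 2, 31 and 30 of them were detected in the transitional sums of mouse 1 and mouse 2, and Krt79, a keratin of the upper follicle, was at 840 and 432 CPM. Their part in the result was not tested.

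From transitional to differentiated cells, the 3 members of the beta group rose. Gjb5 rose 10.9-fold (log2 3.44 ± 0.179, adjusted p = 1.02e-08), Gjb6 rose 5.09-fold (2.35 ± 0.315, adjusted p = 5.04e-05) and Gjb2 rose 2.99-fold (1.58 ± 0.181, adjusted p = 1.16e-05). Gja1 stood at 0.24 ± 0.102 (adjusted p = 0.0964) and passed with the mouse as a block (0.24, adjusted p = 0.0322) and at resolution 1.2 (0.34, adjusted p = 0.0240). In this step 16.8% of genes rose and 14.6% fell, and the median of the members was 1.97 against −0.03 over all genes. The transitional levels of Gjb5 and Gjb6 lay within or below the range of T cell-like and Langerhans cell-like cells respectively, as given above. Against those classes they were not told apart from free RNA, and the size of these folds rests on them. The follicle markers, all 31 detected, summed to 2314 and 1746 CPM in the differentiated stage, below the transitional sum of the same mouse.

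From differentiated to terminally differentiated cells, Gjb5 and Gja1 fell. Gjb5 was 4.27-fold lower (log2 −2.10 ± 0.266, adjusted p = 3.60e-05) and Gja1 was 1.82-fold lower (−0.87 ± 0.129, adjusted p = 0.000146). Gjb2 stood at −0.20 ± 0.253 (adjusted p = 0.603) and Gjb6 at 0.04 ± 0.429 (adjusted p = 0.963), with intervals from −0.80 to 0.40 and from −0.97 to 1.05. Of all genes tested 15.4% rose and 15.8% fell. With a mitochondrial limit of 5%, neither call held, with Gja1 at −0.35 (adjusted p = 0.289) and Gjb5 at −0.87 (adjusted p = 0.312). No stage was named transitional at that limit, and the differentiated one held 354 cells at a median of 15036 UMIs. Its leading genes included Stfa1 and BC100530, which lead the transitional cluster of the main run, so the contrast was not the same. Markers of dividing and of basal cells moved with this step too. The 20 G2/M markers, all detected, summed to 2659 and 2263 CPM in terminally differentiated cells against 207 and 630 CPM in differentiated cells, and the 10 basal markers, all detected, to 9491 and 11195 against 2457 and 2908 CPM. The 10 melanocyte markers, 9 of them detected in each terminally differentiated sum and Gpr143 at 0, summed to 242 and 299 against 24.2 and 102 CPM. The part of these cells in the result was not tested.

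**Figure D2:**
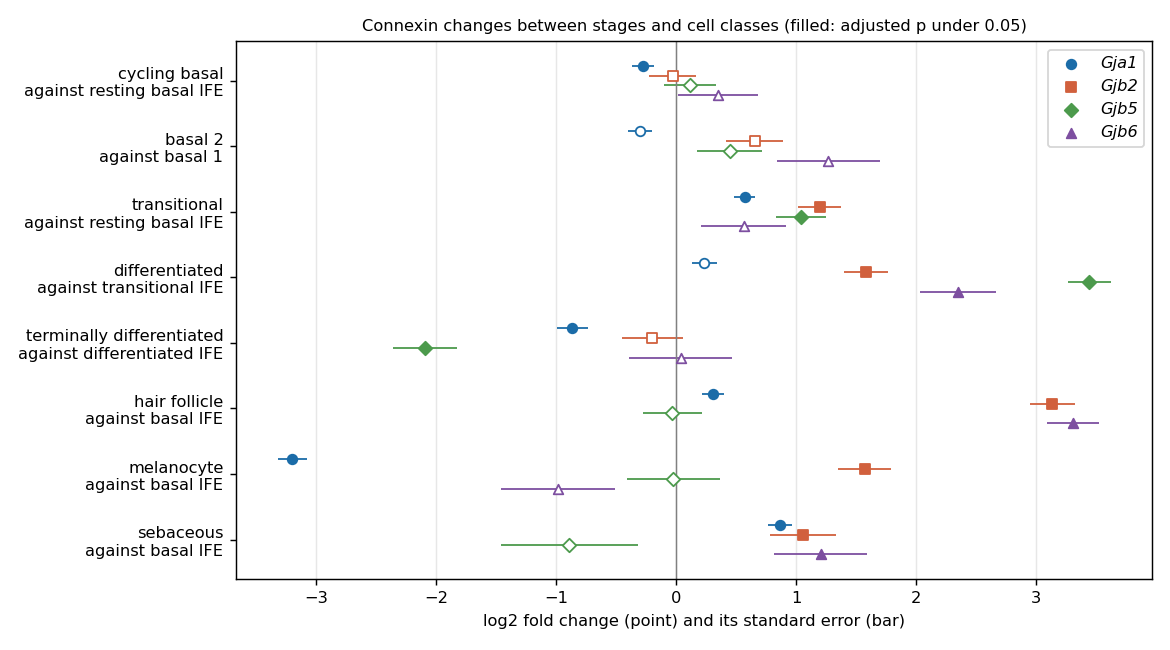
Log2 fold change of each member (points, horizontal axis) in the 8 comparisons (vertical axis) with its standard error (bars), from the edgeR fits over 2 mice, with filled points where the adjusted p was under 0.05. Gjb5 has its largest rise from transitional to differentiated IFE (3.44) and its largest fall in the next step (−2.10), and Gjb2 and Gjb6 have theirs between hair follicle and basal IFE (3.14 and 3.31).

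The same course was read without stage names, from each IFE cell's share of Krt1 and Krt10 among its Krt1, Krt10, Krt5 and Krt14 UMIs. The IFE cells themselves were picked by cluster name, and these keratins are in the marker lists. The reading is thus not independent of the naming. Keratinocytes trade Krt5 and Krt14 for Krt1 and Krt10 as they leave the basal layer. Gjb5 stayed low until late. In the lowest bin, a share under 0.1, it stood at 3.03 and 3.91 CPM over 1827 and 2596 cells, in the bin from 0.7 to 0.9 at 17.4 and 12.6 CPM, and in the highest bin, above 0.9, at 63.0 and 63.4 CPM over 228 and 231 cells. Gja1 moved earlier, from 176 and 151 CPM in the bin from 0.1 to 0.3 to 216 and 222 CPM in that from 0.3 to 0.5 and 263 and 270 CPM in that from 0.5 to 0.7, and stood at 256 and 267 CPM in the highest bin. In both mice Gja1 was already at or above its level of the highest bin in the bin from 0.5 to 0.7, where Gjb5 stood at 5.03 and 6.58 CPM. Gjb2 went from 6.92 and 8.24 CPM in the lowest bin to 39.6 and 35.1 CPM in the highest. Gjb6 lay between 0 and 5.19 CPM in the 5 lower bins and at 9.61 and 11.6 CPM in the highest. In both mice it rose from the lowest bin (1.83 and 1.94 CPM) to that from 0.1 to 0.3 (4.66 and 5.19 CPM). It was lower again from 0.3 to 0.5, at 2.01 and 1.92 CPM from 2 and 4 UMIs. The bins from 0.5 to 0.9 had no order that both mice shared. The middle bins held as few as 39 cells in mouse 1 and 81 in mouse 2.

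**Figure D3:**
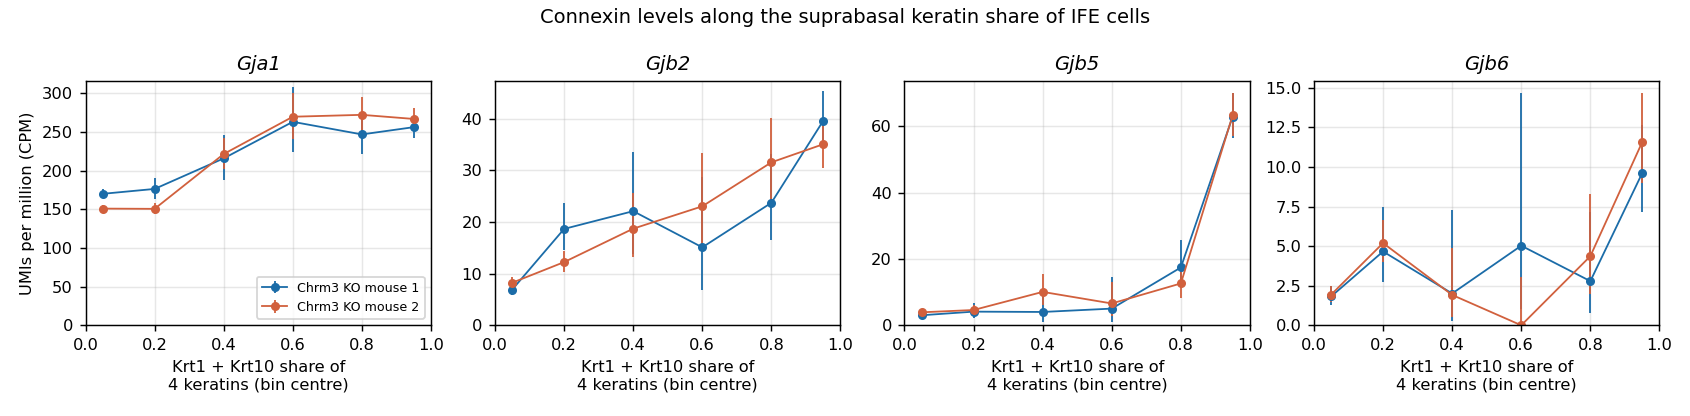
Level of each connexin (CPM, vertical axis, linear from 0, a scale of its own in each panel) in 6 bins of the suprabasal keratin share of IFE cells (horizontal axis, bin centres), with 1 point per mouse and exact 95% Poisson intervals. Gja1 steps up by the bin from 0.5 to 0.7, at 263 and 270 CPM, whereas Gjb5 reaches 63.0 and 63.4 CPM only in the last bin.

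Shares of cells with a UMI gave the spread of each transcript among cells, although differentiated cells were deep, with medians of 24666 and 24564 UMIs. Of differentiated cells, 86.8% and 88.2% held a Gja1 UMI, 55.0% (46.7 to 63.1) and 51.6% (44.2 to 59.0) a Gjb5 UMI, 51.7% and 48.9% a Gjb2 UMI, and 28 of 151 and 39 of 186 cells a Gjb6 UMI. After thinning each cell to 3000 UMIs the shares were 45.3% and 53.0% for Gja1, 15.3% and 13.7% for Gjb5, 13.3% (20 of 150) and 22 of 183 cells for Gjb2 and 3.33% and 3.83% for Gjb6. For the background of free RNA, T cell-like cells, which express few epithelial genes and had medians of 9303 and 8486 UMIs, held a Gjb5 UMI in 3.85% and 10.5% of cells, a Gjb2 UMI in 0% and 2.63%, and a Gja1 UMI in 13.5% and 23.7%. With 52 and 38 T cell-like cells, these shares rest on few counts, at 2 and 4 UMIs for Gjb5. Shares of Gjb5 in all 4 basal populations, from 2.74% to 6.71% at medians of 8071 to 14633 UMIs, lay within the range of the T cell-like cells or below it, and those of transitional cells (10.3% and 8.98% at medians of 13305 and 13016 UMIs) within it. Against that class, Gjb5 in basal and transitional cells was not told apart from background. Langerhans cell-like cells, at medians of 9639 and 9802 UMIs, held a Gjb5 UMI in 2.76% and 5.18% of cells. That was below the shares of transitional and of dividing basal cells in both mice. The latter cells were deeper, and the reading for them depended on the class taken as background.

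Whether members were caught in the same cells was read from thinned cells. In the differentiated stage, both Gjb2 and Gjb5 were found in 6 of 150 cells of mouse 1 and 4 of 183 cells of mouse 2 (2.19%), where the product of the single shares is 2.04% and 1.64%. Gja1 and Gjb5 were found together in 9.33% and 4.92% of cells against products of 6.95% and 7.24%, above in one mouse and below in the other. Each of these 4 products lay within the exact interval of its observed share, so for these pairs no joint occurrence beyond that of the single shares was detectable at this depth. Gja1 and Gjb2 were found together in 4.0% and 2.73% of cells, below their products of 6.04% and 6.37%. The product of mouse 2 lay just above its interval (0.893 to 6.26) and that of mouse 1 inside. For the pairs with Gjb6 all products lay inside.

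Outside the IFE, the order of cell types differed from member to member. Gja1 was highest in sebaceous-like cells (254 and 259 CPM), dividing hair follicle-like cells (269 and 231) and dermal mesenchymal-like cells (246 and 232), whose values overlapped. It stood at 228 and 205 CPM in hair follicle-like cells and at 172 and 147 CPM in basal IFE. It was low in melanocyte-like cells (19.6 and 17.0 CPM), Langerhans cell-like cells (38.0 and 39.5 CPM), T cell-like cells (43.0 and 43.6 CPM) and Merkel-like cells (37.3 and 77.9 CPM, from 6 and 15 UMIs). All epithelial and mesenchymal values lay above all values of the pigment, immune and Merkel-like cells in both mice.

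Gjb2 was highest in hair follicle-like cells, at 102 and 65.8 CPM, above every other class outside the IFE in both mice. Melanocyte-like cells followed at 31.1 and 23.8 CPM, then dividing hair follicle-like cells at 24.3 and 19.3 CPM and sebaceous-like cells at 19.8 and 12.9 CPM, each overlapping its neighbour in that order. Basal IFE stood at 8.55 and 8.74 CPM, within the range of Langerhans cell-like cells (11.4 and 6.97 CPM). T cell-like cells held 0 and 1 UMI, which allows up to 5.37 CPM in the first mouse by the limit of 3 counts.

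Gjb6 followed Gjb2 at the top, with 33.2 and 22.7 CPM in hair follicle-like cells, 10.7 and 7.66 in dividing hair follicle-like cells and 5.72 and 4.84 in sebaceous-like cells, with no overlap among the first 3. It stood at 2.21 and 2.78 CPM in basal IFE and at 0.676 and 1.72 CPM in melanocyte-like cells, from 2 and 9 UMIs, and no UMI was seen in Merkel-like cells. Gjb5 was low everywhere outside the upper IFE, between 0 and 9.68 CPM in all classes, with the highest value from 4 UMIs in T cell-like cells. No class outside the IFE reached its level in the differentiated IFE (74.4 and 67.6 CPM).

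**Figure D4:**
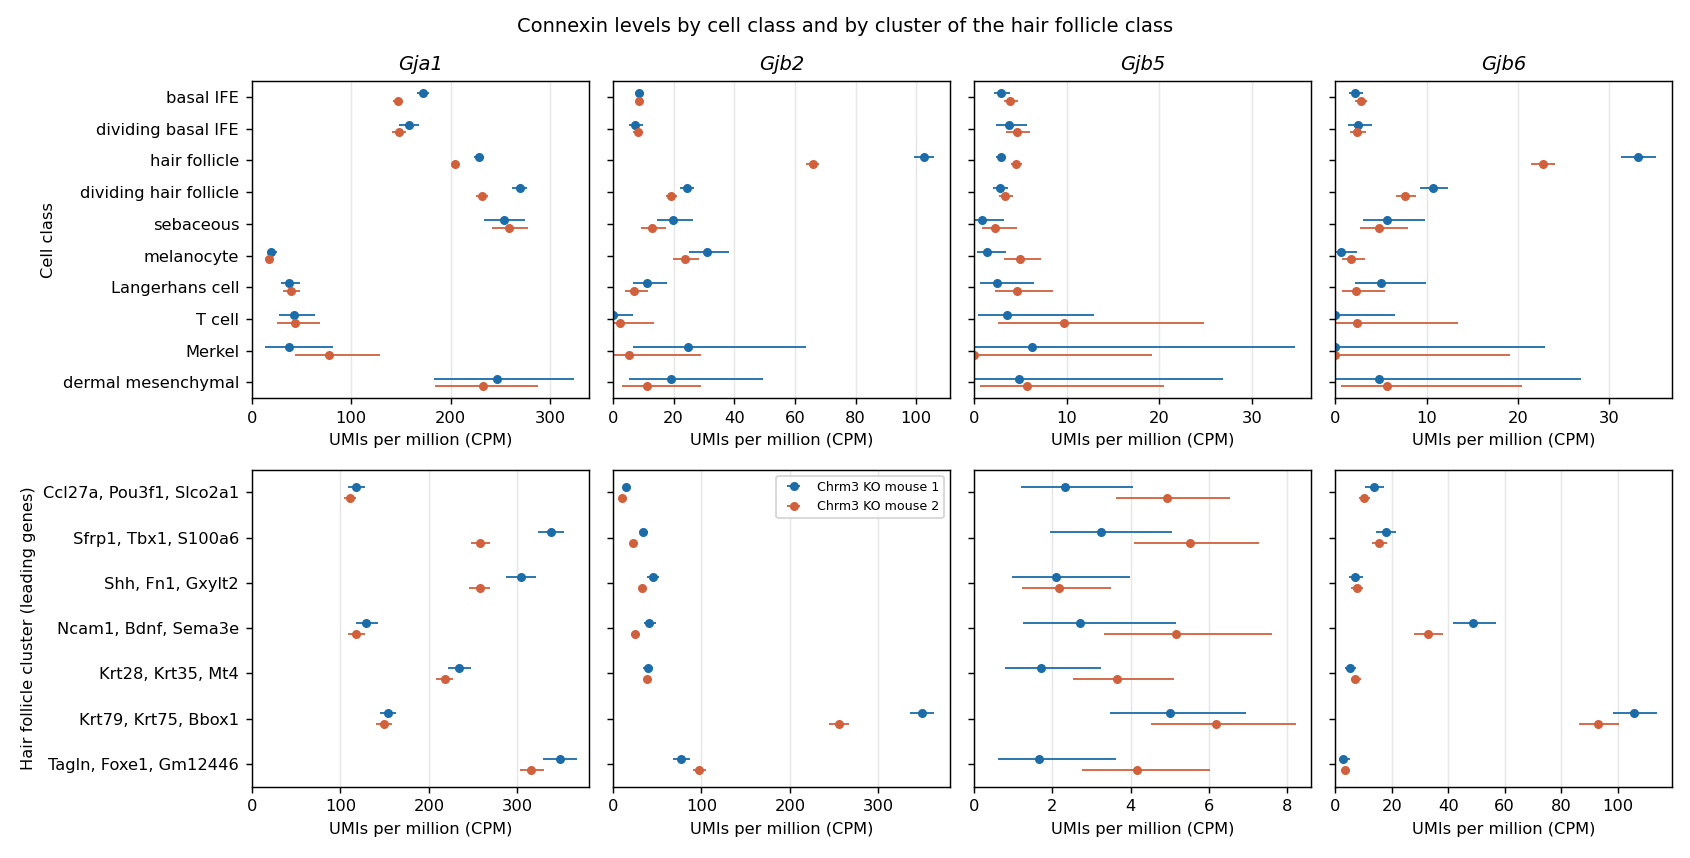
Level of each connexin (CPM, horizontal axis, linear from 0, a scale of its own in each panel) in the cell classes (upper row) and in the clusters of the hair follicle class, named by their leading genes (lower row), with 1 point per mouse and exact 95% Poisson intervals. Hair follicle-like cells are highest for Gjb2 (102 and 65.8 CPM) and Gjb6 (33.2 and 22.7 CPM) among classes outside the IFE, and Gja1 is at most 77.9 CPM in the melanocyte-, Langerhans cell-, T cell- and Merkel-like cells.

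Hair follicle-like cells were compared with basal IFE. Gjb6 was 9.89-fold higher (log2 3.31 ± 0.218, adjusted p = 7.75e-11), Gjb2 was 8.80-fold higher (3.14 ± 0.184, adjusted p = 1.38e-11) and Gja1 was 1.24-fold higher (0.31 ± 0.093, adjusted p = 0.0139), where 16.5% of the 13700 genes tested rose and 13.8% fell. Gjb5 stood at −0.03 ± 0.248 (adjusted p = 0.952, interval −0.57 to 0.51). The basal IFE levels of Gjb2 and Gjb6 lay within or below the range of Langerhans cell-like cells, while other classes stood lower, as given above. Against the Langerhans cell-like class the lower side of these folds was not told apart from free RNA, and their size rests on it. The Gja1 call did not hold with a mitochondrial limit of 5% (0.20, adjusted p = 0.384). At that limit basal IFE held clusters of 775 cells, of 593 led by Bdnf, Ncam1 and Sema3e, and of 96 led by Ccer2. The main run named clusters led by the latter genes hair follicle and Merkel, so the reference was not the same. Without the cluster led by Krt79, described next, Gjb2 was still higher by 2.00 (adjusted p = 4.22e-10) and Gjb6 by 2.23 (adjusted p = 1.53e-08). The class held 1146 and 1241 Gjb6 UMIs, of which the Krt79-led cluster held 741 and 695. Clusters led by Ncam1 (162 and 159) and by Ccl27a (71 and 100) held many of the rest. The follicle names of both are uncertain, as given below, and their part in the remaining rise was not tested.

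The follicle was not uniform in these genes. The values per cluster are a description, since the clusters were looked at after their levels had been seen. The cluster led by Krt79, Krt75 and Bbox1, with 344 and 346 cells, held Gjb2 at 349 (336 to 363) and 255 (244 to 267) CPM and Gjb6 at 106 (98.4 to 114) and 93.2 (86.4 to 100) CPM. Krt79 and Krt75 are keratins of the upper follicle and of the companion layer. Markers of differentiated IFE went with this cluster as well. In the Krt79-led cluster at resolution 1.2 their mean enrichment was 0.683, against 0.619 for follicle markers. With a mitochondrial limit of 5% these values were 0.621 and 0.515. The part of differentiation in the Gjb2 and Gjb6 levels was not tested. These cells were 11.5% and 7.48% of the follicle class and held 69.1% and 52.9% of its Gjb2 UMIs and 64.7% and 56.0% of its Gjb6 UMIs. Over all kept cells they were 4.52% and 2.91% of cells with 52.1% and 37.6% of Gjb2 UMIs and 49.7% and 41.5% of Gjb6 UMIs. Their Gja1, in contrast, stood at 154 and 149 CPM, below the class as a whole, and their Gjb5 at 5.0 and 6.17 CPM.

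Elsewhere in the follicle Gjb2 and Gjb6 parted. The cluster led by Tagln and Foxe1 held Gjb2 at 77.1 and 97.8 CPM with Gjb6 at 2.77 and 3.57 CPM. The cluster led by Ncam1, Bdnf and Sema3e, which had no follicle marker among its 10 leading genes and was placed by mean enrichment, held Gjb2 at 41.3 and 24.7 CPM with Gjb6 at 48.9 and 32.7 CPM. The 2 clusters do not overlap in either gene, and their orders are opposite.

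Gja1 had another order in the follicle. Among clusters outside the dividing class it was highest in the Tagln- and Foxe1-led cluster (348 and 316 CPM), followed by the cluster led by Sfrp1 and Tbx1 (338 and 258 CPM) and that led by Shh (303 and 257 CPM), each overlapping its neighbour in that order. A cluster of the dividing follicle class, led by Edn1 and Col14a1, stood at 343 and 273 CPM. Shh is the hedgehog ligand of the growing follicle tip. Gja1 was lowest in the cluster led by Ccl27a and Pou3f1, at 118 and 111 CPM, whose follicle name is uncertain. It was named from 2 follicle markers among its 10 leading genes, while its mean enrichment was 0.61 for basal IFE and −0.51 for follicle markers, and at resolution 1.2 a cluster led by the same genes was named basal IFE. Next lowest was the Ncam1-led cluster, at 129 and 118 CPM. Without the Ccl27a-led cluster the values ran from 118 to 348 CPM, beyond the span from 147 to 228 CPM of basal IFE and the follicle class as a whole. The low end of that run is the Ncam1-led cluster, whose class is uncertain as well. Without it too, the lowest was the Krt79-led cluster, at 154 and 149 CPM.

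Of the 6 pairs of members, Gjb2 with Gjb6 and Gja1 with Gjb2 held the most joint cells in the Krt79-led cluster. In its cells thinned to 3000 UMIs, Gjb2 and Gjb6 were found together in 18.2% (14.2 to 22.7) and 13.7% (10.3 to 17.9) of cells, where the product of their single shares is 13.8% and 8.67%. In both mice the product lay below the counting interval of the joint share, narrowly in mouse 1 (13.8% against 14.2%). That interval takes cells as independent and gives the product no error of its own. Whether a mix of cell types within the cluster played a part was not tested. Gja1 and Gjb2 were found together in 13.2% and 9.65% of these cells against products of 16.2% and 11.3%, both inside the intervals.

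Melanocyte-like cells, the pigment cells among the keratinocytes, differed from basal IFE in Gja1 and Gjb2. Gja1 was 9.18-fold lower (log2 −3.20 ± 0.121, adjusted p = 5.33e-16) and Gjb2 was 2.98-fold higher (1.57 ± 0.220, adjusted p = 1.96e-06), where 27.6% of genes rose and 24.0% fell. Gjb5 stood at −0.02 ± 0.390 (adjusted p = 0.988) and Gjb6 at −0.98 ± 0.476 (adjusted p = 0.0904). Gjb6 passed as lower with a mitochondrial limit of 5% (−1.66, adjusted p = 0.0439), without called doublets (−1.50, 0.0208) and without a filter on low counts (−1.06, 0.0440). The Gjb2 call did not hold with a mitochondrial limit of 5% (0.13, adjusted p = 0.863). At that limit basal IFE held the other clusters named above. All 10 melanocyte markers were detected, at a sum of 11967 and 13507 CPM, and the follicle markers, 30 and 29 of 31 detected, summed to 389 and 459 CPM there against 2332 and 2436 CPM in basal IFE.

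Sebaceous-like cells, the lipid-making cells of the gland attached to the follicle, were higher than basal IFE in 3 members. Gja1 was 1.82-fold higher (log2 0.87 ± 0.097, adjusted p = 8.76e-08), Gjb6 was 2.31-fold higher (1.21 ± 0.387, adjusted p = 0.0123) and Gjb2 was 2.08-fold higher (1.06 ± 0.272, adjusted p = 0.00243), where 26.3% of genes rose and 22.4% fell. Gjb5 stood at −0.89 ± 0.571 (adjusted p = 0.214), from 2 and 7 UMIs. The Gjb6 levels of sebaceous-like cells (5.72 and 4.84 CPM, from 13 and 15 UMIs) overlapped those of Langerhans cell-like cells (5.06 and 2.32 CPM) in their Poisson intervals. Against that class they were not told apart from free RNA, while melanocyte-like cells stood lower (0.676 and 1.72 CPM). For Gjb2, sebaceous-like cells (19.8 and 12.9 CPM) lay above Langerhans cell-like cells (11.4 and 6.97 CPM) in both mice, with overlapping Poisson intervals. T cell-like cells stood lower in Gjb2, at 0 and 2.42 CPM. With a mitochondrial limit of 5% the Gjb2 and Gjb6 calls did not hold, at −0.75 (adjusted p = 0.340) and −0.0028 (adjusted p = 1). Basal IFE at that limit held the other clusters named above, so the reference was not the same. The follicle markers summed to 5837 and 4892 CPM in sebaceous-like cells, with 26 and 30 of 31 detected, against 2332 and 2436 CPM in basal IFE, and Krt79 stood at 4892 and 3816 CPM. Their part in the result was not tested.

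Of the other 16 connexin genes listed, 12 were too low for the test in the IFE and 11 in the cell classes. Gjc1, which encodes Cx45, was higher in dividing than in resting basal cells (1.68, adjusted p = 0.000188) and in terminally differentiated than in differentiated cells (2.50, adjusted p = 0.0184). Markers of dividing cells were higher in the terminally differentiated sums too, and their part was not tested. Against basal IFE it was higher in melanocyte-like (1.94) and hair follicle-like cells (0.52) and lower in sebaceous-like cells (−1.86), each passing the test. In melanocyte-like cells, Gjc3 stood at 80.5 and 63.9 CPM against 0 and 0.282 CPM in basal IFE. Gjb1, the connexin of liver and of myelinating Schwann cells, stood at 15.9 and 27.3 CPM there, from 47 and 143 UMIs, against 0 UMIs in basal IFE, where 3 counts would be 0.184 and 0.106 CPM.

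Pannexins form channels of a like shape without pairing into gap junctions. Panx1 fell from resting basal to transitional cells (−0.37, adjusted p = 0.0368) and from transitional to differentiated cells (−1.32, adjusted p = 9.51e-05), the same steps in which Gjb2 and Gjb5 rose. It was also lower in dividing than in resting basal cells (−0.43, adjusted p = 0.0189) and lower than in basal IFE in hair follicle-like (−0.95), melanocyte-like (−1.17) and sebaceous-like cells (−2.14), each with an adjusted p of 2.89e-06 or less. Panx2 was too low to test, and Panx3 was tested only among cell classes, with 32 and 14 UMIs in sebaceous-like cells against 0 and 1 UMI in basal IFE.

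Of 12 genes whose proteins bind, traffic or modify connexins, all were tested. From resting basal to transitional cells 2 rose, where 18.7% of all genes did, the scaffold Tjp1 (by 1.17) and the membrane linker Ezr (by 1.59), and 5 fell, where 17.0% did, the caveolar protein Cav1 (−1.29), the kinases Prkca (−1.51) and Src (−0.52), Cnst, which helps to bring connexins to the membrane (−0.78), and the ubiquitin ligase Nedd4 (−0.50). From transitional to differentiated cells Tjp1 (by 0.98) and Ezr (by 0.73) rose, and 3 genes fell, where 14.6% of all genes did, Cav1 (−2.27), Prkca (−1.04) and Nedd4 (−0.73). From differentiated to terminally differentiated cells 5 rose, where 15.4% of all genes did, Cav1 (by 2.66), Prkca (by 2.57), Dbn1 (by 2.48), Cnst (by 1.82) and Nedd4 (by 0.85), and Ezr fell (−2.21), where 15.8% did. Markers of basal and of dividing cells rose in that step as well, as given above. The part of such cells in these values was not tested. Among basal cells, Dbn1 was higher (1.68) and Cnst (−0.55) and Nedd4 (−0.33) lower in dividing than in resting cells, and Ezr was lower in basal 2 than in basal 1 (−0.96). The list's median in the 3 steps was −0.27, 0.10 and −0.07, against 0.00, −0.03 and 0.02 over all genes. Against basal IFE, 3 rose and 1 fell in hair follicle-like cells (16.5% and 13.8% of all genes) and 5 rose and 4 fell in sebaceous-like cells (26.3% and 22.4%). In melanocyte-like cells 1 fell (24.0%). Several of these counts out of 12 are near the share over all genes, and they are given for the genes named, not as a result about the list. Tjp1 was higher in hair follicle-, melanocyte- and sebaceous-like cells (1.70, 1.13 and 0.98) and Cav1 lower in the same classes (−0.75, −1.97 and −2.60). Others that rose were Dbn1 (2.33) and Prkca (0.72) in hair follicle-like cells, Dbn1 (1.02), Src (0.82) and Nedd4 (0.43) in melanocyte-like cells, and Cnst (0.58), Hgs (0.56), Csnk1d (0.42) and Tsg101 (0.31) in sebaceous-like cells, where Prkca (−1.27), Ezr (−0.67) and Nedd4 (−0.53) fell.

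Over the 14 sums of the 7 IFE stages and 2 mice, likeness to each member was described by Pearson's r of log2(CPM + 10) among 9332 genes. The points share mice and libraries, and r is given with no test. The genes most like Gjb5 were Rgs20 (r = 0.997), Ttc22 (0.99) and Fam213b (0.99). Those most like Gjb2 were Casp14, a protease of the cornifying layers, Slc30a1, a zinc exporter, and Cptp, each at r = 0.98. Those most like Gjb6 were Lyst (0.97), Sp6 (0.97) and Gdpd1 (0.96), and those most like Gja1 were Pkp1, a desmosomal plaque protein (0.98), Tiam1 (0.95) and Hebp1 (0.95). Gjb6 had 3 and 12 UMIs in the shallow terminally differentiated sums of mouse 1 and mouse 2. Lyst, Sp6 and Gdpd1 reached at most 30.6, 23.3 and 23.3 CPM in any sum. Every r of Gjb6 thus rests on few counts. Hebp1, Rgs20, Slc30a1, Ttc22 and Cptp were low as well, at most 18.7, 21.6, 40.8, 42.6 and 47.1 CPM in any sum. Tiam1, Fam213b, Casp14 and Pkp1 reached 169, 209, 235 and 670 CPM. Among the members, r was 0.90 for Gjb2 with its neighbour Gjb6, 0.88 for Gjb2 with Gjb5 and 0.80 for Gjb5 with Gjb6, and lower for Gja1, at 0.67 with Gjb5, 0.53 with Gjb2 and 0.30 with Gjb6. No member was the gene most like another member.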

How the data were processed

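UMI counts per gene and barcode were deposited by the authors, not normalized and before any filter on cells. The submitters' processing notes name Cell Ranger 3.0.2 and mm10. The methods of the study name another version of the 10x chemistry than the labels do. The 4 members, the marker lists and the wider gene lists were chosen with earlier results of these data known.

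The study's filter was applied, which keeps barcodes with 900 to 7700 genes and a mitochondrial share under 10%. Scrublet, run through scanpy 1.11.5 (Python 3.11.15) with an expected rate of 0.08, called 164 and 500 doublets, which were removed only as an alternative. Cells of both mice were log-normalized, integrated and clustered with Seurat 5.3.0 (R 4.3.3) at resolution 0.8, with all connexin and pannexin genes left out of the variable genes and of the naming. Names came from markers among the 10 leading genes of a cluster or from mean enrichment. A name needed at least 3 markers enriched by 0.5 on the log2 scale. A cluster with over 25% called doublets stayed unnamed. A mean enrichment of 1 parted differentiated from transitional cells. These limits were set with the clusters in view. A second clustering of IFE cells alone was not used, because 42.2% of the 237 cells of its terminally differentiated cluster were called doublets.

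UMI counts were summed per mouse and stage or class, since cells are not replicates, and nothing beyond the mouse was replicated. The 14 stage sums and the 24 sums of the 12 classes with at least 20 cells per mouse, which leaves out Merkel-like cells, entered 1 fit each of edgeR 4.0.16 (filterByExpr, TMM, and the quasi-likelihood test with Benjamini-Hochberg adjusted p), with 11872 and 13700 genes and 7 and 12 residual degrees of freedom. The standard error of a fold change was its size over the square root of F. In simulated data with 200 genes changed by 2 on the log2 scale, 96.0% were recovered among 11380 genes for transitional, 95.5% among 11397 for differentiated, 66.5% among 11409 for terminally differentiated and 89.5% among 12406 for hair follicle-like cells. Same-numbered sums come from the same mouse and were treated as pairs in the block alternative. Over 9332 genes, the difference of mouse 1 from mouse 2 in a stage had a Pearson's r with that in another stage from −0.02 to 0.64 (median 0.35 over 21 pairs). Exact intervals used scipy 1.17.1. DESeq2 1.42.0 was an alternative. Genes of the wider lists are named where they passed the test or reached 10 CPM in an IFE stage, and for each member the 3 genes most like it. Results for some genes of these lists are not reported here. Gene positions came from GENCODE M21, in which 27645 of 27998 identifiers (98.7%) were found. Promoter windows of all 4 members came from RefSeq, and no protein sequences were used here.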

Additional observations from a re-analysis of the deposited data

How the results depend on the processing

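Of the 32 member values tested, 17 passed. DESeq2 and its size factors kept direction and side of the threshold for all 32. With the replicate block, which pairs the sums of a mouse, 4 values that had not passed did so, Gja1 (−0.30), Gjb2 (0.67) and Gjb6 (1.27) for basal 2 against basal 1 and Gja1 (0.24) for differentiated against transitional IFE, the basal 2 calls went from 1055 to 2314 genes, and no other call of a member changed. Without integration the basal 2 calls were 1926, with Gja1 at −0.48 and Gjb6 at 1.43, both now passing, and Gjb5 at −0.084, the cycling values were 0.086 for Gja1, no longer passing, and 1.17 for Gjb2 and 2.12 for Gjb6, both now passing, Gjb2 stood at 0.57 in terminally differentiated cells and Gjb5 at 0.0095 in melanocyte-like cells. No stage was named transitional there, so its contrasts had no value, and the differentiated stage held 1296 cells in place of 337. The basal 2 and dividing stages held other clusters than in the main run, as they did at resolution 1.2. At resolution 1.2 the cycling values were 0.15, 0.80 and 1.22 for Gja1, Gjb2 and Gjb6, of which those of Gjb2 and Gjb6 now passed and that of Gja1 did not, Gja1 stood at −0.56 for basal 2 and 0.34 for differentiated cells, both now passing, and Gjb6 at −0.16 for terminally differentiated cells. With a mitochondrial limit of 5%, the IFE gave the terminally differentiated contrast only, where 1211 genes in place of 3695 were called, Gja1 stood at −0.35 and Gjb5 at −0.87. At this limit the differentiated stage and basal IFE held other clusters than in the main run. There Gja1 stood at 0.20 in hair follicle-like cells, Gjb2 at 0.13 and Gjb6 at −1.66, now passing, in melanocyte-like cells and Gjb2 at −0.75 and Gjb6 at −0.0028 in sebaceous-like cells, with 1800, 4608 and 4352 genes called in place of 4150, 7062 and 6675. Without a filter on low counts Gjb6 passed at 1.26 for basal 2 and −1.06 for melanocyte-like cells. Without called doublets it passed at −1.50 for melanocyte-like cells and stood at −0.17 for terminally differentiated cells.

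Scaling to library totals in place of TMM, chosen after seeing the data as was leaving out the Krt79-led cluster, moved the median of all genes by up to 0.36, in terminally differentiated cells. The share of calls that were higher then went from 57.7% to 78.8% (cycling), 42.8% to 60.6% (basal 2), 53.5% to 37.5% (differentiated), 49.3% to 74.9% (terminally differentiated), 54.5% to 72.2% (hair follicle-like) and 54.0% to 42.8% (sebaceous-like). The cycling values were then −0.15 for Gja1 and 0.10 for Gjb2, Gjb2 stood at 0.15 for terminally differentiated cells, and Gjb5 at 0.10 for hair follicle-like and 0.035 for melanocyte-like cells. With 1 mouse there is no test. Leaving out each mouse gave 1.14 to 1.66 for Gjb6 in basal 2, 1.14 to 1.33 for Gjb2 in transitional cells, 0.23 for Gja1 in differentiated cells both times, −0.62 to 0.28 for Gjb6 in terminally differentiated cells, 0.31 for Gja1 in hair follicle-like cells both times, −3.22 to −3.14 for Gja1, −1.20 to 0.31 for Gjb5 and −1.77 to −0.72 for Gjb6 in melanocyte-like cells, and 0.71 to 0.86 for Gja1 and −1.58 to −0.75 for Gjb5 in sebaceous-like cells. Thinning to 3000 UMIs took the mean shares of differentiated cells with a UMI to 49.2% (Gja1), 12.7% (Gjb2), 14.5% (Gjb5) and 3.58% (Gjb6), and with Krt10 and Krt14 alone the highest keratin bin held Gjb5 at 64.8 CPM in place of 63.2. The causes of these changes were not tested, other than the smaller depth that thinning itself sets. With 2 mice, and 9 and 12 Gjb5 UMIs in terminally differentiated cells, small changes there were beyond reach.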

Other observations

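Gja1, Gjb2 and Gjb6 differed between the mice over all kept cells as well, at 211 and 187 CPM, 49.4 and 34.0 CPM, and 15.7 and 11.2 CPM in mouse 1 and mouse 2, with no overlap of the exact 95% Poisson intervals. Gjb5 stood at 6.43 and 6.64 CPM, with overlapping intervals. The mice differed in the share of cells in the Krt79-led cluster too, at 4.52% and 2.91%. With 1 library per mouse, animal and library cannot be told apart.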
